A study of Mus musculus with 32 samples.

Results

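Small leucine-rich proteoglycans (SLRPs) are secreted matrix proteins, and 9 genes that encode members of this family were followed across all libraries: Dcn (decorin), Bgn (biglycan), Aspn (asporin), Lum (lumican), Fmod (fibromodulin), Prelp, Ogn (osteoglycin, also called mimecan), Omd (osteomodulin) and Podn (podocan). They were taken by gene name from the 53801 gene IDs listed, whatever their values, and all 9 were found. RNA of quadriceps muscle was sequenced from 32 mice, WT or Col6a2-/-, aged 5 or 25 weeks, female or male, with 4 mice in each of the 8 groups and 1 library per mouse. The Col6a2-/- mice were homozygous for the Col6a2tm1(KOMP)Vlcg allele, a knockout, present in every cell, of a gene that encodes one of the chains of collagen VI. That allele came from a C57BL/6N strain, and the line had been crossed back to C57BL/6J for 5 generations. Heterozygous parents gave both genotypes, so the WT mice share that mixed background away from the Col6a2 locus. Sequence linked to that locus may still be of the donor strain in Col6a2-/- mice only. For genes linked to it, the allele and its flanking sequence cannot be told apart. Comparisons of genotype address how the SLRP genes are expressed where collagen VI is missing, in a series that concerns collagen VI and the availability of TGFβ in muscle. Replicates are numbered as in the sample titles.

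SLRPs consist of a core of leucine-rich repeats, and most carry chondroitin, dermatan or keratan sulfate chains. Many bind fibrillar collagens and influence how fibrils assemble. Decorin and biglycan, of class I, also bind collagen VI and TGFβ, and in muscle the family is made mainly by connective tissue cells between the fibres. Asporin is a class I member that binds collagen and TGFβ and has no glycosaminoglycan attachment site of the decorin type. Lumican, fibromodulin, PRELP and osteomodulin belong to class II, osteoglycin to class III and podocan to class V.

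Expression values are TPM, transcript abundances computed by the authors and scaled for transcript length, so levels can be compared between genes within a library. Changes are differences of log2(TPM + 1) tested with limma over the 12817 genes that reached 1 TPM in 4 or more libraries. The p-values were adjusted over all of these genes by the Benjamini-Hochberg method, and a change was called at an adjusted p under 0.05. All 9 members passed this filter, with at least 1 TPM in 32 of 32 libraries for each member except Podn, with 31, and Omd, with 22. The number of reads per library is unknown. The ratio of mean coverage to FPKM, which serves as a relative measure of depth, ran from 6.78 to 13.6 over the libraries. Col6a2 was at most 0.171 TPM in the 16 libraries labelled Col6a2-/- and between 6.60 and 51.2 TPM in the 16 WT libraries. Mitochondrial genes took 31.9% to 46.9% of TPM and the Rn7s genes 20.8% to 30.5%. Among Col6a2-/- females of 5 weeks, replicate 2 had the highest sum of the 9 members of all libraries, at 930.7 TPM, and replicate 4 the lowest sum of its group, at 306.1 TPM. The sexes were weighted equally in the comparisons of genotype and of age, and these comparisons share libraries with each other.

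Dcn was the most abundant of the 9 transcripts in all 32 libraries, with a median of 267 TPM and a range of 168 to 492 TPM. It made up 51.9% to 73.1% of the summed TPM of the family. Ogn (median 37.2 TPM), Fmod (32.1), Lum (26.8), Bgn (23.8) and Aspn (21.7) followed with overlapping ranges and exchanged places between libraries. Prelp had a median of 9.21 TPM, and Podn (2.01) and Omd (1.27) took the last places in every library. Fmod varied most over the 32 libraries, with a highest value 17.3 times the lowest, followed by Bgn with 11.6 times. Dcn varied least, with 2.93 times, and Ogn (3.71 times) and Podn (3.74 times) came next. The plot of levels by group shows these values for every library.

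**Figure D1:**
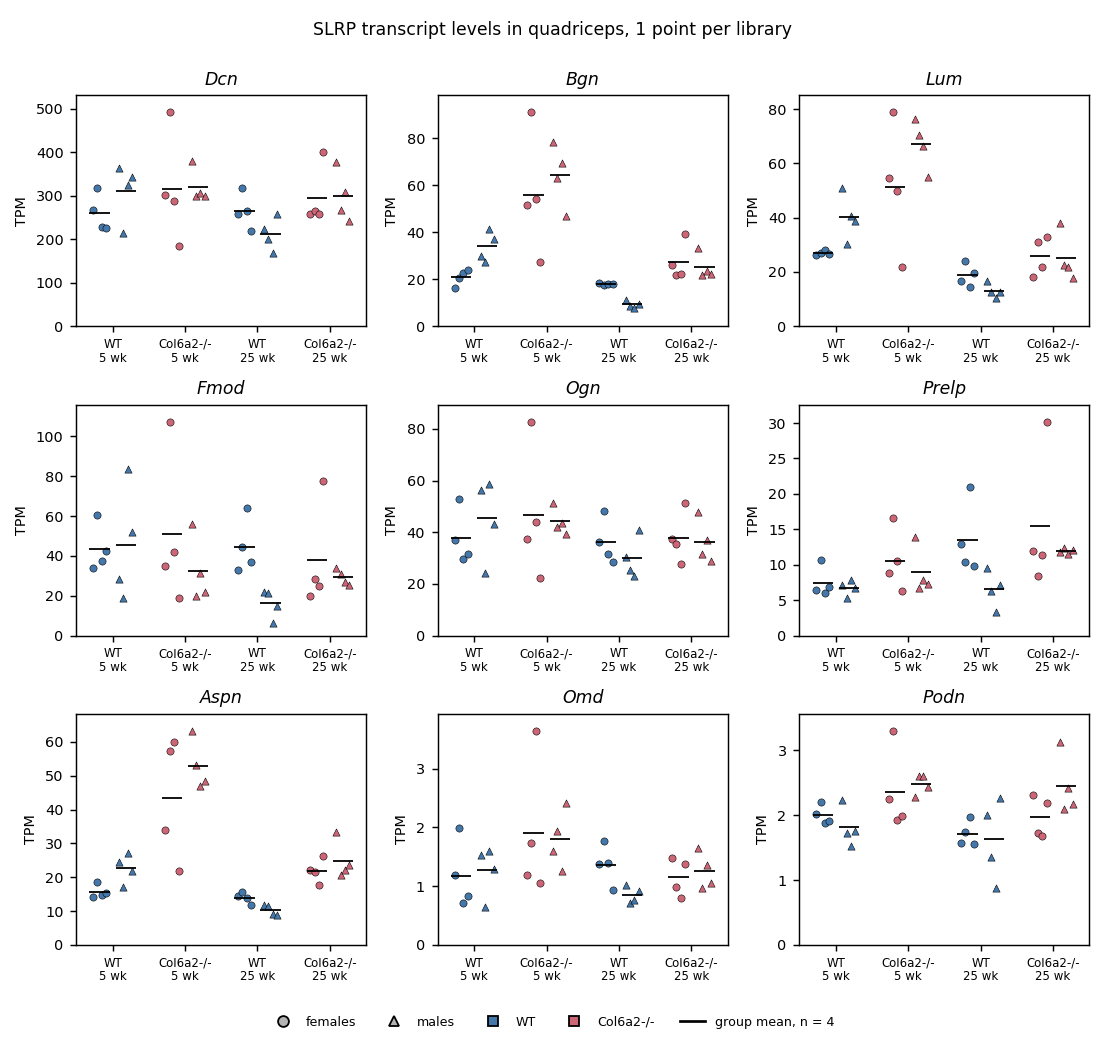
TPM of each of the 9 SLRP genes on a linear axis from 0 (vertical) in the 8 groups of genotype, age and sex (horizontal); each point is 1 library and the bars are group means. Bgn and Aspn of Col6a2-/- mice lie above those of WT mice of the same age and sex in each of the 4 pairs of groups, while the points of Dcn and Ogn overlap between genotypes in each pair.

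Bgn, the gene of biglycan, was higher in Col6a2-/- muscle at both ages. In WT mice of 5 weeks, females had 16.5, 20.7, 22.5 and 23.9 TPM and males 29.9, 27.4, 41.3 and 37.3 TPM. In Col6a2-/- mice of that age, females had 51.5, 91.0, 54.2 and 27.2 TPM and males 78.3, 63.1, 69.6 and 46.9 TPM. Every Col6a2-/- library lay above every WT library of the same sex, a separation seen in 8.53% of tested genes for these females and 9.32% for these males, and only the pooled groups overlapped, through replicate 4 of the Col6a2-/- females. The mean rose from 27.4 ± 8.44 to 60.2 ± 19.8 TPM (SD, n = 8 each), a log2 change of 1.09 (SE 0.165, 95% interval 0.749 to 1.422, limma adjusted p = 2.1e-05), with 8 of 8 libraries above the WT mean of their sex. At 25 weeks the WT females had 18.4, 17.4, 17.9 and 17.9 TPM and the WT males 11.3, 8.64, 7.85 and 9.41 TPM. The Col6a2-/- females of 25 weeks had 26.1, 21.9, 22.3 and 39.3 TPM and the males 33.5, 21.6, 23.7 and 22.1 TPM. All 8 Col6a2-/- libraries of 25 weeks thus lay above all 8 WT libraries, and 0.663% of tested genes showed such a separation upwards. The mean was 13.6 ± 4.70 TPM in WT and 26.3 ± 6.58 TPM in Col6a2-/- mice (SD, n = 8 each), with a log2 change of 0.94 (SE 0.165, 95% interval 0.604 to 1.278, limma adjusted p = 0.00125).

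Aspn, the gene of asporin, had the largest change with genotype of the 9 members at 5 weeks. WT females of 5 weeks had 14.2, 18.7, 14.9 and 15.3 TPM and WT males 24.5, 17.3, 27.3 and 21.8 TPM. Col6a2-/- females had 33.9, 57.4, 60.0 and 22.0 TPM and Col6a2-/- males 63.2, 53.3, 46.9 and 48.5 TPM. The genotypes did not overlap within either sex, as held upwards for 8.53% of tested genes in females and 9.32% in males, and in the pooled groups replicate 4 of the Col6a2-/- females again fell within the WT range. The mean rose from 19.2 ± 4.81 to 48.1 ± 14.0 TPM (SD, n = 8 each), a log2 change of 1.25 (SE 0.148, 95% interval 0.944 to 1.552, limma adjusted p = 6.3e-07; higher in 8 of 8 libraries). At 25 weeks, WT females had 14.4, 15.6, 13.8 and 11.9 TPM and WT males 11.8, 11.4, 9.28 and 8.79 TPM. Col6a2-/- females had 22.1, 21.6, 17.7 and 26.4 TPM and males 33.3, 20.8, 22.1 and 23.7 TPM, all of them above every WT library of that age, as held for 0.663% of tested genes. The log2 change at 25 weeks was 0.90 (SE 0.148, 95% interval 0.593 to 1.200, limma adjusted p = 0.000817), with means of 12.1 ± 2.40 and 23.5 ± 4.67 TPM (SD, n = 8 each).

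Aspn lies in a row of SLRP genes on chromosome 13 of the mouse build GRCm38, at 13:49544443-49567565 on the plus strand. Ecm2 ends 11.7 kb before it, Omd (13:49582462-49592822) begins 14.9 kb after it, and Ogn (13:49608046-49624501) begins 15.2 kb after Omd. At 5 weeks the log2 changes with genotype along this row were 1.25 for Aspn, 0.34 for Omd (limma adjusted p = 0.0784) and 0.10 for Ogn (limma adjusted p = 0.74). Ogn, the last gene of the row, was more abundant than Aspn over all libraries by its median, and its change had a 95% interval of -0.316 to 0.514, which lies below that of Aspn. Aspn, Omd and Ogn all lie inside Cenpp on the opposite strand. Whether the authors' quantification used strand is not given in the sources used here, so reads in shared stretches cannot be assigned with certainty. Cenpp itself was at 0.142 to 1.38 TPM. The 250 bases before the RefSeq start of 3 members, all on the plus strand of GRCm38.p6, are shown because Aspn and Bgn had the largest changes with genotype and Ogn, of the same row as Aspn, had the smallest in size at 5 weeks. They cover 13:49544193-49544442 for Aspn, 13:49607765-49608014 for Ogn and X:73483351-73483600 for Bgn. Capitals mark TATAAA on either strand.
Aspn: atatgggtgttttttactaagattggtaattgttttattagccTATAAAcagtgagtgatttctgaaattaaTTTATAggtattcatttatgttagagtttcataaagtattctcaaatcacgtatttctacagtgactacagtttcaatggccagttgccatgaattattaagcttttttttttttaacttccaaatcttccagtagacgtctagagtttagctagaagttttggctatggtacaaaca
Ogn: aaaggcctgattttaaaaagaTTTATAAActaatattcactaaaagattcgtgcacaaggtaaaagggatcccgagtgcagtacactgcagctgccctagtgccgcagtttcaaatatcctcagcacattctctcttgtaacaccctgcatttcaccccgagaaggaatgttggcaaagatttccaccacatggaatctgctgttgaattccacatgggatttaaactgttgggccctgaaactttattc
Bgn: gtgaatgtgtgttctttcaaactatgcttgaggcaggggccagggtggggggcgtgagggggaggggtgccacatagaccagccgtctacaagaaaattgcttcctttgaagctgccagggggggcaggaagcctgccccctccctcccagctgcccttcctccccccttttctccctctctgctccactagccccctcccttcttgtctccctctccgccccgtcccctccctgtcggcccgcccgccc

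Promoters were found in the RefSeq table for 7 of the 9 members, in 8 entries, and 4 motifs were searched on both strands of each. TATAAA occurred at 2 places in Aspn, with first bases 207 and 178 bases before the start, and at 2 overlapping places in Ogn, 229 and 227 bases before it. It was present in 12.4% of the 32851 promoters of the table. CANNTG, the E-box, occurred at 1 place each in Bgn and Aspn and at 3 in Ogn, and was in 66.2% of all promoters. TGANTCA, the AP-1 motif, and CAGACA, a SMAD-binding motif, were in none of the 8 entries, against 6.75% and 17.1% of all promoters. The window of Bgn was 64.4% G and C, that of Ogn 42% and that of Aspn 30%, against a median of 52.4% over all promoters. These matches describe letters in the windows and not binding.

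Lum, the gene of lumican, was higher in Col6a2-/- muscle at 5 weeks and, close to the threshold, at 25 weeks. WT females of 5 weeks had 26.3, 26.9, 28.2 and 26.7 TPM and WT males 51.0, 30.2, 40.5 and 38.8 TPM. Col6a2-/- females had 54.5, 78.8, 50.0 and 21.8 TPM and Col6a2-/- males 76.4, 70.3, 66.3 and 55.0 TPM. All Col6a2-/- males exceeded all WT males, as held for 9.32% of tested genes, whereas replicate 4 of the Col6a2-/- females lay below all WT females. The mean rose from 33.6 ± 8.97 to 59.1 ± 18.4 TPM (SD, n = 8 each), a log2 change of 0.75 (SE 0.183, 95% interval 0.376 to 1.127, limma adjusted p = 0.00383; higher in 7 of 8 libraries). At 25 weeks, WT females had 16.8, 24.2, 14.4 and 19.8 TPM, WT males 16.5, 12.4, 10.5 and 12.7 TPM, Col6a2-/- females 18.2, 31.2, 21.8 and 32.7 TPM and Col6a2-/- males 38.0, 22.6, 21.7 and 17.9 TPM. The genotypes overlapped in females and not in males, where 13.9% of tested genes were separated upwards. The log2 change was 0.64 (SE 0.183, 95% interval 0.268 to 1.018, limma adjusted p = 0.04; higher in 7 of 8 libraries). That call was lost without a filter on TPM (adjusted p = 0.106), after rescaling without mitochondrial and Rn7s genes (adjusted p = 0.0666), and in 10 of the 32 fits that each left out 1 library. Those 10 were WT females 1, 3 and 4, WT males 2, 3 and 4, Col6a2-/- females 2 and 4 and Col6a2-/- males 1 and 3 of 25 weeks, with adjusted p-values up to 0.117.

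Dcn, the gene of decorin, differed less between genotypes than these 3. At 5 weeks WT libraries ranged from 215 to 364 TPM (median 292.2) and Col6a2-/- libraries from 185 to 492 TPM (median 301.5), with overlap in both sexes. The log2 change of 0.14 (SE 0.152, 95% interval -0.173 to 0.450, limma adjusted p = 0.517) was not called, and was 0.02 without replicate 2 of the Col6a2-/- females. At 25 weeks the ranges were 168 to 317 TPM in WT and 242 to 401 TPM in Col6a2-/- mice. The log2 change of 0.32 (SE 0.152, 95% interval 0.005 to 0.628, limma adjusted p = 0.251) was not called either.

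Biglycan and decorin are the closest relatives in class I, and the ratio of their TPM does not depend on how a library is scaled. In the 5-week groups the ratio of Bgn to Dcn was 0.0619 to 0.105 in WT females, 0.0821 to 0.127 in WT males, 0.147 to 0.189 in Col6a2-/- females and 0.157 to 0.227 in Col6a2-/- males. No WT library of 5 weeks reached the lowest Col6a2-/- library, and the 2 Col6a2-/- females that stood apart in their summed SLRP level, replicates 2 and 4, had ratios of 0.185 and 0.147. The geometric mean rose from 0.0939 to 0.185, a log2 difference of 0.98 (exact permutation within sex, two-sided, p = 0.000408, adjusted over 8 tests 0.00109; higher in 8 of 8 libraries). At 25 weeks the ratio was 0.0365 to 0.0820 in WT and 0.0768 to 0.101 in Col6a2-/- mice, with a log2 difference of 0.68 (exact permutation p = 0.000408, adjusted 0.00109; higher in 8 of 8 libraries). The value 0.000408 is the smallest p this test can give. With age the ratio fell by 0.78 on the log2 scale in WT mice (exact permutation p = 0.00449, adjusted 0.00718; lower in 7 of 8 libraries) and by 1.07 in Col6a2-/- mice (exact permutation p = 0.000408, adjusted 0.00109; lower in 8 of 8).

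**Figure D2:**
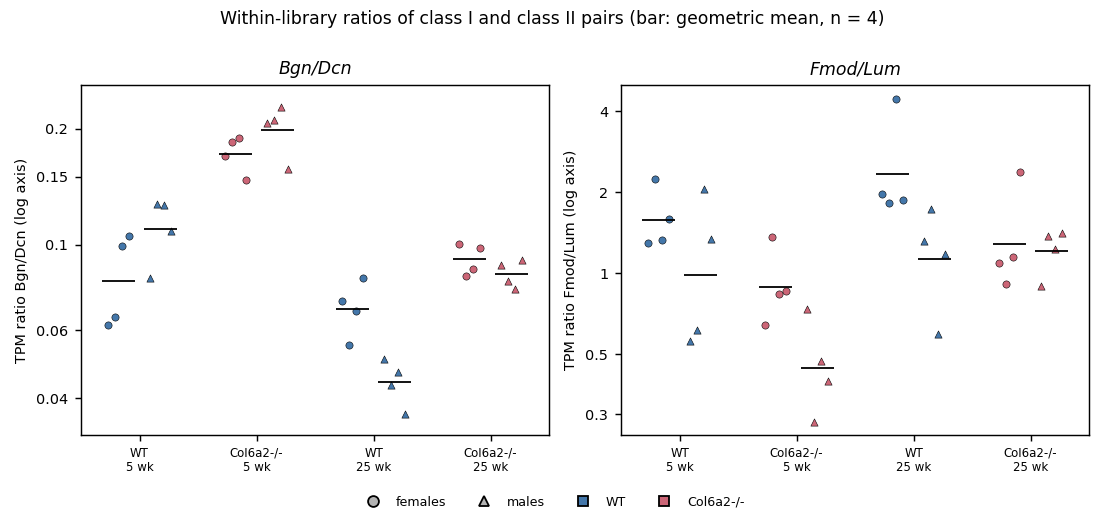
Ratio of Bgn to Dcn TPM and of Fmod to Lum TPM (vertical, log axes) in the 8 groups (horizontal); each point is 1 library and the bars are geometric means. The Bgn to Dcn ratios of 5-week Col6a2-/- mice, 0.147 to 0.227, all lie above those of 5-week WT mice, 0.0619 to 0.127.

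Fmod, the gene of fibromodulin, varied more within groups than between genotypes. At 5 weeks the values were 34.2, 60.3, 37.3 and 42.6 TPM in WT females, 28.5, 18.6, 83.4 and 52.0 TPM in WT males, 35.0, 107, 42.0 and 18.8 TPM in Col6a2-/- females and 56.1, 19.7, 31.2 and 21.9 TPM in Col6a2-/- males. The genotypes overlapped in both sexes, and the log2 change was -0.21 (SE 0.325, 95% interval -0.877 to 0.452, limma adjusted p = 0.649). At 25 weeks the log2 change was 0.27 (SE 0.325, limma adjusted p = 0.693), with 30.3 ± 18.2 TPM in WT and 33.5 ± 18.4 TPM in Col6a2-/- mice (SD, n = 8 each). The males of 25 weeks did not overlap, with 21.8, 21.6, 6.2 and 15.1 TPM in WT and 33.9, 31.1, 26.7 and 25.1 TPM in Col6a2-/- mice, and 13.9% of tested genes were separated upwards in the same comparison of 4 against 4. Their log2 change of 0.94 was not called (limma adjusted p = 0.251), and that of the females of 25 weeks had the other sign, at -0.40, with 3 of 4 Col6a2-/- libraries below the WT mean. Without replicate 4 of those Col6a2-/- females the change over both sexes was 0.07.

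Fibromodulin and lumican, close relatives of class II, compete for a shared binding region on collagen I. The geometric mean of the ratio of Fmod to Lum was 1.25 in WT and 0.628 in Col6a2-/- mice of 5 weeks, a log2 difference of -0.99 (exact permutation p = 0.00571, adjusted 0.00762; lower in 8 of 8 libraries). Group ranges were 1.30 to 2.24 in WT females and 0.642 to 1.36 in Col6a2-/- females, which met in a narrow band, and 0.559 to 2.06 in WT males and 0.280 to 0.734 in Col6a2-/- males. At 25 weeks the geometric means were 1.62 and 1.24, and their log2 difference of -0.38 did not pass (exact permutation p = 0.232, adjusted 0.265; lower in 4 of 8 libraries). With age the ratio rose by 0.99 on the log2 scale in Col6a2-/- mice (exact permutation p = 0.00408, adjusted 0.00718; higher in 8 of 8), while in WT mice the difference was 0.38 (exact permutation p = 0.266).

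The other 4 members showed no called change with genotype at either age, although with library weights Omd was called at 5 weeks (limma adjusted p = 0.0402) and Podn at 25 weeks (adjusted p = 0.0172). With those weights 29.3% of all tested genes rose at 5 weeks and 14.5% at 25 weeks. Ogn had 41.7 ± 13.1 TPM in WT and 45.3 ± 17.2 TPM in Col6a2-/- mice of 5 weeks, and 33.0 ± 8.38 and 37.2 ± 8.47 TPM at 25 weeks (SD, n = 8 each). Prelp, whose product is rich in proline and arginine and anchors basement membranes to connective tissue, had 7.13 ± 1.59 and 9.75 ± 3.72 TPM at 5 weeks (log2 change 0.36, SE 0.215, limma adjusted p = 0.219). At 25 weeks Prelp had 10.0 ± 5.32 TPM in WT and 13.7 ± 6.78 TPM in Col6a2-/- mice (log2 change 0.46, limma adjusted p = 0.234; 0.28 without replicate 4 of the Col6a2-/- females). The males of 25 weeks were separated for Prelp as well, with 9.60, 6.25, 3.28 and 7.07 TPM in WT and 11.8, 12.4, 11.5 and 12.0 TPM in Col6a2-/- mice, as were 13.9% of tested genes, and the change was not called (limma adjusted p = 0.116). Omd, named for osteomodulin of mineralised tissue, stayed low at 0.652 to 3.64 TPM, with a log2 change of 0.34 at 5 weeks (limma adjusted p = 0.0784) and 0.07 at 25 weeks (limma adjusted p = 0.826). Podn had 1.91 ± 0.240 and 2.43 ± 0.435 TPM at 5 weeks and 1.67 ± 0.433 and 2.21 ± 0.453 TPM at 25 weeks, with log2 changes of 0.23 (SE 0.0964, limma adjusted p = 0.076) and 0.27 (limma adjusted p = 0.103). Podn shares its strand with Scp2 in part of its locus on chromosome 4, and Scp2 was at 23.3 to 40 TPM, so the small values of Podn are uncertain. At such low levels the log2(TPM + 1) scale understates changes.

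Counted together, 3 of the 9 members rose with genotype at 5 weeks, where 25.4% of all tested genes were called and 23.2% rose, and 3 of 9 rose at 25 weeks, where 4.7% were called and 4.47% rose. No member fell. The median change of the 9 was 0.338 at 5 weeks and 0.317 at 25 weeks, against 0.145 and 0.0823 over all tested genes. Relative to the median of all genes, the changes at 5 weeks were 0.94 for Bgn, 1.10 for Aspn and 0.61 for Lum, and those at 25 weeks were 0.86, 0.81 and 0.56. Scaling by median-of-ratios size factors moved the median of all genes at 5 weeks from 0.145 to 0.0006, and Bgn, Aspn and Lum still rose at both ages under it. The share of all genes that rose was then 12.7% at 5 weeks and 5.85% at 25 weeks. The small positive values of Dcn and Ogn at 5 weeks turned negative under that scaling, at -0.0529 and -0.0888. Leaving out replicate 4 of the Col6a2-/- females of 5 weeks raised the count at that age from 3 to 5, by Omd and Podn, and the change of Bgn to 1.23, of Aspn to 1.39 and of Lum to 0.93. The same fit raised the count over all genes from 3253 to 4749, so the rise was not particular to the members.

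**Figure D3:**
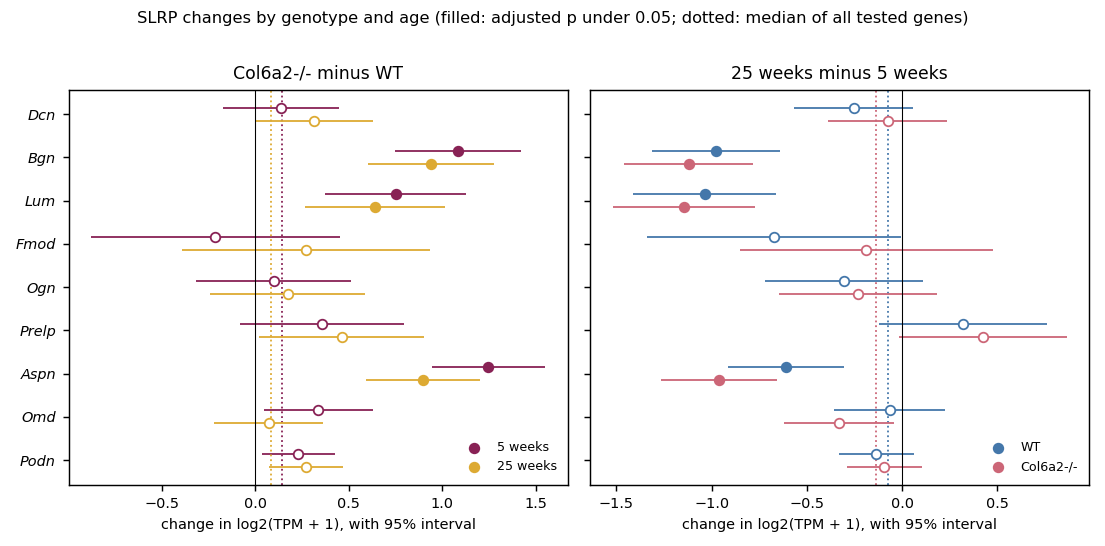
Change in log2(TPM + 1) of each of the 9 members with genotype at 5 and 25 weeks and with age in WT and Col6a2-/- mice (horizontal axis), with 95% intervals; filled points passed an adjusted p under 0.05. Bgn, Aspn and Lum are filled in all 4 comparisons, positive for genotype and negative for age, and the other 6 members are open in each.

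Within sex, fewer mice stood behind each value. In females of 5 weeks, Bgn (log2 change 1.27, SE 0.233, limma adjusted p = 0.000806), Aspn (1.30, SE 0.21, adjusted p = 0.000198) and Lum (0.76, SE 0.259, adjusted p = 0.0493) rose, where 12.9% of all genes were called and 12.3% rose. In males of that age, Bgn (0.90, limma adjusted p = 0.0189) and Aspn (1.20, adjusted p = 0.000577) rose, where 5.03% of all genes were called and 4.55% rose, and Lum was at 0.74 (adjusted p = 0.0999). The call of Bgn in these males was lost without WT replicate 1 or 2 or Col6a2-/- replicate 1 or 3 (limma adjusted p = 0.051 to 0.0995), and that of Lum in the females in 27 of 32 such fits. The call of Lum in these females was also lost under 6 alternatives of pseudocount, filter and scaling (limma adjusted p = 0.0544 to 0.124), while Lum in males of 5 weeks was called after rescaling without mitochondrial and Rn7s genes and with library weights (adjusted p = 0.0409 and 0.0212). In males of 25 weeks, Bgn (1.33, limma adjusted p = 0.00232) and Aspn (1.18, adjusted p = 0.00274) rose, where 3.03% of all genes were called and 2.91% rose, and Lum was at 0.85 (adjusted p = 0.0653; called with a pseudocount of 0.1, at 0.0436, and with library weights, at 0.00651). In females of 25 weeks, limma called 0 members and 1 gene in all (0.0078% of genes), and 2 members and 621 genes had an unadjusted p under 0.05. Bgn (0.55, limma adjusted p = 0.935) and Aspn (0.61, adjusted p = 0.681) were nevertheless higher in 4 of 4 Col6a2-/- females of 25 weeks than in any WT female of that age, which held for 3.8% of all genes. The difference between sexes in the genotype change, over both ages, was 0.21 for Bgn (95% interval -0.269 to 0.684) and 0.23 for Aspn (-0.195 to 0.664), and no member passed the test of it (0.0156% of genes did; limma, 0 members at an unadjusted p under 0.05). For both genes the change was larger in females at 5 weeks and in males at 25 weeks, so this average over ages takes in differences of opposite sign, and the sex difference at each age was not tested. The difference between ages was -0.14 for Bgn (95% interval -0.621 to 0.332), -0.35 for Aspn (-0.781 to 0.078) and -0.11 for Lum (-0.639 to 0.422), and no member passed that test either, where 0.492% of genes did (limma, 0 members at an unadjusted p under 0.05).

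The same 3 genes were lower at 25 than at 5 weeks in both genotypes. In WT mice the log2 changes were -0.98 for Bgn (SE 0.165, limma adjusted p = 9.3e-05), -1.04 for Lum (SE 0.183, adjusted p = 0.000176) and -0.61 for Aspn (SE 0.148, adjusted p = 0.00408), each lower in 8 of 8 libraries. For Lum the WT ranges of the ages did not meet, 26.3 to 51.0 TPM at 5 weeks and 10.5 to 24.2 TPM at 25 weeks, which held downwards for 2.3% of genes. In Col6a2-/- mice they were -1.12 for Bgn (95% interval -1.458 to -0.784, limma adjusted p = 6.7e-06), -1.15 for Lum (-1.520 to -0.770, adjusted p = 2.2e-05) and -0.96 for Aspn (-1.265 to -0.658, adjusted p = 1.4e-05), each again lower in 8 of 8 libraries. These were 3 of 9 members against 19.8% of all tested genes called in WT mice and 34.2% in Col6a2-/- mice; the genes called lower were 15.3% and 28.8% of all tested genes. Dcn was at -0.26 in WT mice (SE 0.152, limma adjusted p = 0.26) and -0.08 in Col6a2-/- mice (adjusted p = 0.726). Prelp was the exception in sign, with 0.32 in WT (limma adjusted p = 0.325) and 0.43 in Col6a2-/- mice (adjusted p = 0.125), and under median-of-ratios and quantile scaling the second of these passed (adjusted p = 0.018 and 0.0208). Macrophage markers moved with age too: 9 of 9 fell in Col6a2-/- mice (median change -0.721) and 1 of 9 in WT mice (median -0.281). Their part in the age changes was not tested. The relative measure of depth also differed with age, with group means of 9.27 to 11.4 at 5 weeks and 7.79 to 9.17 at 25 weeks, and its part in the age changes was not tested. The Bgn level of Col6a2-/- mice at 25 weeks, 26.3 ± 6.58 TPM, stood beside 27.4 ± 8.44 TPM in WT mice at 5 weeks. The Aspn levels were 23.5 ± 4.67 and 19.2 ± 4.81 TPM, and the Lum levels 25.5 ± 7.44 and 33.6 ± 8.97 TPM (SD, n = 8 each). The difference between these groups was not tested.

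Over sex no member was called, where 3.05% of genes were. Fmod had a log2 difference of males minus females of -0.56 (SE 0.23, 95% interval -1.033 to -0.093, limma adjusted p = 0.247) and Prelp of -0.36 (SE 0.152, adjusted p = 0.267).

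The tissue was whole muscle sections, so fewer cells of a type and less RNA per cell cannot be told apart. Transcripts of the 8 muscle fibre markers were present in every library, and 4 of them fell with genotype at 5 weeks, where 2.14% of all tested genes fell. That share of all genes was 11.5% by median-of-ratios scaling and 13% by quantile scaling. The fibre markers themselves were counted only without these scalings. At 25 weeks limma called 0 of them, and 4 had an unadjusted p under 0.05. Macrophage markers moved with genotype beside Bgn, Aspn and Lum: 9 of 9 rose at 5 weeks with a median change of 1.305, and 8 of 9 rose at 25 weeks with a median of 0.839, against 23.2% and 4.47% of all tested genes. Their summed level at 5 weeks was 72.4 to 76.1 TPM in WT females, 79.3 to 122 in WT males, 110 to 382 in Col6a2-/- females and 267 to 381 in Col6a2-/- males. At 25 weeks it was 72.4 to 126 TPM in WT females, 47.4 to 76.6 in WT males, 125 to 227 in Col6a2-/- females and 122 to 202 in Col6a2-/- males. Replicate 2 of the Col6a2-/- females of 5 weeks had the highest macrophage sum of its group (382 TPM) and replicate 4 the lowest (110 TPM). This is also their order in Bgn, Lum, Dcn, Fmod, Ogn and Prelp and in the fibroblast and tenocyte sums. Aspn was highest in replicate 3 (60.0 TPM).

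Of the 9 listed markers of fibroblasts and fibro-adipogenic cells, which make much of the matrix of muscle, 8 were tested and 4 rose at each age, where 23.2% of all tested genes rose at 5 weeks and 4.47% at 25 weeks, while Tcf21 was at 0 to 0.011 TPM. Their summed level ran from 300 to 436 TPM in WT and from 368 to 571 TPM in Col6a2-/- mice of 5 weeks, and from 237 to 469 and from 456 to 708 TPM at 25 weeks. Most of this sum was Gsn, with a median of 335 TPM, which was not called at 5 weeks (limma adjusted p = 0.26) and rose at 25 weeks (adjusted p = 0.00236). Limma called 0 of 8 tenocyte markers for genotype, with 1 at an unadjusted p under 0.05 at each age, and 5 of 8 fell with age in each genotype, where 15.3% of all tested genes fell in WT and 28.8% in Col6a2-/- mice. The tenocyte sum was highest, at 304 TPM, in the library where Fmod was highest (107 TPM) and lowest, at 15.7 TPM, in the library where Fmod was lowest (6.2 TPM). This was not particular to Fmod, since Dcn, Bgn, Lum and Podn also had their highest and lowest values in these libraries. The part of these cell types in the SLRP changes was not tested. Of cartilage and bone markers, 2 of 6 were tested and limma called 0 for genotype. An unadjusted p under 0.05 was reached by 1 of them at 5 weeks and by 0 at 25 weeks. Sost was at 0 to 0.011 TPM. At 5 weeks 3 of 7 endothelial markers, 1 of 7 smooth muscle and pericyte markers and the 1 tested satellite cell marker of 4 rose, and none of these was called at 25 weeks, where 2, 2 and 0 had an unadjusted p under 0.05. Limma called 0 of 6 adipocyte markers for genotype at either age, with 0 and 1 at an unadjusted p under 0.05 and median changes of 0.384 at 5 weeks and 0.748 at 25 weeks. The adipocyte sum in males of 25 weeks was 22.2 to 190 TPM in WT and 190 to 403 TPM in Col6a2-/- mice. In females of that age it overlapped, at 138 to 430 and 127 to 598 TPM. The median changes of the adipocyte markers were 1.276 in these males and 0.115 in these females. Limma also called 0 of the 5 tested Schwann markers for genotype, with 0 at an unadjusted p under 0.05, and 3 Schwann markers fell with age in WT and 5 in Col6a2-/- mice. Of the macrophage markers, 1 of 9 fell with age in WT and 9 of 9 in Col6a2-/- mice (median changes -0.281 and -0.721). Of 8 fibroblast markers 3 fell in each genotype, and 1 rose in Col6a2-/- mice. In WT and Col6a2-/- mice, 2 and 3 of 7 endothelial and 4 and 3 of 7 smooth muscle and pericyte markers fell. Muscle fibre markers fell in 2 of 8 cases in each genotype.

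**Figure D4:**
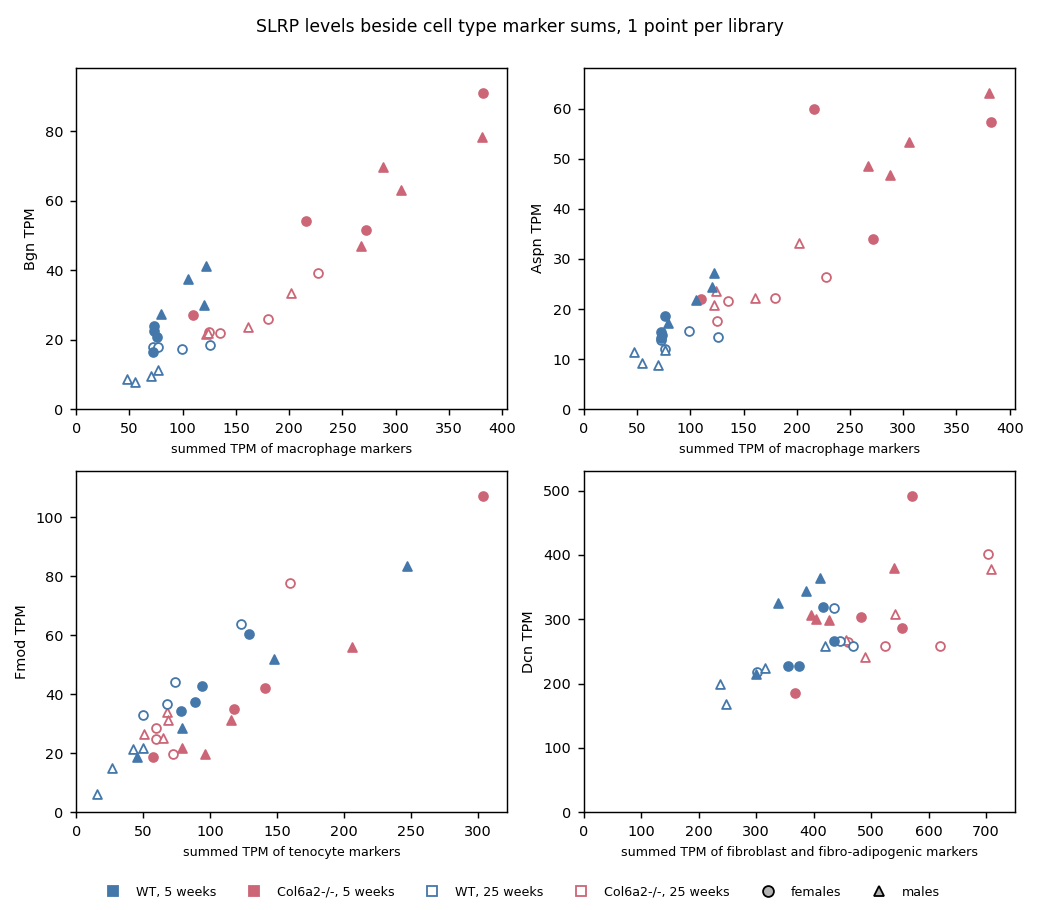
TPM of Bgn and Aspn against the summed TPM of macrophage markers, of Fmod against tenocyte markers and of Dcn against fibroblast and fibro-adipogenic markers (linear axes from 0); each point is 1 of the 32 libraries, coloured by genotype, filled at 5 and open at 25 weeks. The macrophage sums of Col6a2-/- mice reach 382 TPM, while those of WT mice end at 126 TPM.

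The genes whose pattern over the 32 libraries was nearest to a member's were found by the root mean square difference of log2(TPM + 1) after centring each gene on its mean, as a description with no test. For Bgn, whose own SD was 0.841, they were Ptgfrn (0.231), Col14a1 (0.234), which encodes a collagen associated with fibrils, and Cd44 (0.254), which encodes a hyaluronan receptor. For Aspn (SD 0.748) they were Cd44 (0.247) and the complement genes C1qb (0.252) and C1qc (0.269), both of which are on the macrophage list. For Lum (SD 0.763) they were Ctsk (0.204), a collagen-degrading cathepsin, Maged2 (0.219) and Olfml2b (0.219). Bgn ranked 9 among all genes by nearness to Aspn. Dcn (SD 0.331) was nearest to Bmp5 (0.163), Ogn (0.164) and Timp2 (0.165), and Ogn (SD 0.416) was nearest to Dcn (0.164), Timp2 (0.199) and Twist1 (0.219). For Fmod (SD 0.769) they were Cpxm2 (0.324), Chad (0.328), another leucine-rich repeat protein of matrix, and Abi3bp (0.418). Prelp (SD 0.547) was nearest to Fbln1 (0.25), Lepr (0.332) and Mmrn1 (0.358). For Omd and Podn even the nearest gene was far relative to the member's own SD, so little can be read from their neighbours. The nearest gene to Omd, Icosl, was at 0.241 against an SD of 0.316, and that to Podn, Lrig3, at 0.142 against 0.226. The centred patterns of Dcn and Bgn differed by 0.657. The genes were not scaled to equal spread, so this value includes the difference between their SDs, 0.331 and 0.841.

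Other genes of the family and of its pathway were read from lists. Of 10 further SLRP and related genes, 4 were tested. Ecm2, next to Aspn in the row on chromosome 13, rose at 5 weeks from 6.27 to 8.09 TPM (log2 change 0.32, SE 0.118, limma adjusted p = 0.0428) and was at 0.39 at 25 weeks (adjusted p = 0.0541). Kera, which encodes keratocan, lies 34.2 kb from Lum and is also on the tenocyte list. It fell with age in WT mice from 20.9 to 5.56 TPM (log2 change -1.77, SE 0.332, limma adjusted p = 0.000336) and was at -0.56 with genotype at 5 weeks (adjusted p = 0.215). Tsku, of the tsukushi protein, was lower with age by -0.36 in WT and -0.33 in Col6a2-/- mice (limma adjusted p = 0.0262 and 0.027), and Chad was called in none of these 4 comparisons.

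Enzymes that build the chondroitin and dermatan sulfate chains of SLRPs rose in 7 of 15 tested cases at 5 weeks, with a median change of 0.190, and in 0 of 15 at 25 weeks by limma, with a median of 0.147 and 5 at an unadjusted p under 0.05. Over all tested genes 23.2% rose at 5 weeks and 4.47% at 25 weeks, with medians of 0.145 and 0.0823. Chst14, the dermatan 4-O-sulfotransferase, changed by 0.32 at 5 weeks (SE 0.0976, limma adjusted p = 0.0187). With age 4 of 15 fell in WT and 9 of 15 in Col6a2-/- mice, where 15.3% and 28.8% of all tested genes fell, and Csgalnact1, which starts chondroitin chains, fell in both, with log2 changes of -0.48 and -0.58 (limma adjusted p = 0.000194 and 8.2e-06). Of 4 tested keratan sulfate enzymes, 2 rose at 5 weeks, among them B4galt4 from 2.07 to 3.27 TPM (limma adjusted p = 0.000899).

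Collagen partners of the SLRPs changed as follows. Beside Col6a2 itself, Col6a1 rose by 0.52 at 5 weeks and 0.70 at 25 weeks on the log2 scale (limma adjusted p = 0.0372 and 0.0263) and Col6a3 by 0.61 and 0.67 (adjusted p = 0.0245 and 0.0483). Of 7 fibrillar collagen genes, 3 rose with genotype at each age and 7 of 7 fell with age in each genotype. Col5a2 rose from 34.6 to 69.1 TPM at 5 weeks (limma adjusted p = 0.000258) and Col3a1 from 50.7 to 117.6 TPM at 25 weeks (log2 change 1.25, adjusted p = 0.00125). Their median change with age was -1.721 in WT and -1.773 in Col6a2-/- mice, beside -0.305 and -0.230 for the 9 members, of which 3 were called lower in each genotype. The difference between these gene groups was not tested. Over all tested genes, 23.2% rose with genotype at 5 weeks and 4.47% at 25 weeks, and 15.3% and 28.8% fell with age in WT and Col6a2-/- mice.

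Proteases that cleave SLRPs rose in 5 of 8 tested cases at 5 weeks, where 23.2% of all tested genes rose, and 2 of 8 at 25 weeks, where 4.47% did, so the count was lower at 25 weeks for all genes as well. Mmp14, a membrane-bound metalloproteinase, rose from 5.87 to 11.4 TPM at 5 weeks (limma adjusted p = 0.00476), and Mmp2 from 14.3 to 23.4 TPM at 25 weeks (adjusted p = 0.0133). With age 4 of 8 proteases fell in WT, where 15.3% of all tested genes fell. In Col6a2-/- mice 5 of 8 fell and 1 rose, where 28.8% of all tested genes fell and 5.41% rose. Bmp1, which removes the propeptide of biglycan and other SLRPs, fell with age by 0.81 on the log2 scale in WT and by 0.87 in Col6a2-/- mice (limma adjusted p = 3.2e-05 and 5e-06). Mmp9 rose with age in Col6a2-/- mice by 0.46 (limma adjusted p = 0.00548). Of 7 TGFβ ligands and receptors, 3 rose and 1 fell at 5 weeks and limma called 0 at 25 weeks, where Mstn was at -0.43 (adjusted p = 0.0995) and was the 1 gene with an unadjusted p under 0.05. Over all tested genes 23.2% rose and 2.14% fell at 5 weeks, and by median-of-ratios scaling 12.7% rose and 11.5% fell. The TGFβ genes themselves were counted only without that scaling. Tgfbr1, the type I receptor, rose from 6.39 to 10.8 TPM (limma adjusted p = 0.000258), and Mstn, which encodes myostatin, a ligand of the same superfamily that decorin can bind, fell from 15.8 to 9.60 TPM (adjusted p = 0.00168). Of 7 tested surface receptors known to bind SLRPs, 3 rose at 5 weeks, and at 25 weeks limma called 0, with 3 at an unadjusted p under 0.05. Tlr2, a receptor for soluble biglycan that macrophages carry, rose from 0.619 to 1.69 TPM at 5 weeks (limma adjusted p = 0.000174).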

How the data were processed

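Per the labels' protocols, 10 µm cryosections of snap-frozen quadriceps gave 150 ng of total RNA with a RIN of at least 8, and TruSeq RNA libraries were read in pairs of 150 bases on an Illumina instrument. The submitters' processing notes name FastQC, MultiQC, Trimmomatic, HISAT2, SAMtools and StringTie and the build GRCm38. Not given in the sources used here are tool versions, the annotation and whether strand was used. The deposited TPM values, computed by the authors per library, were summed per gene ID. The deposited FPKM values, also from the authors, served as an alternative scale, and the deposited coverage, named so in the file headers, served with FPKM to compare depth. No counts were used here, so the design's branch for normalised values was followed.

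For each library log2(TPM + 1) was taken, and 12817 genes were kept that reached 1 TPM in 4 or more libraries. One model with 8 group means was fitted with limma 3.58.1 (lmFit, eBayes with trend) in R 4.3.3 and tested on simulated data; 11 comparisons were each adjusted over all genes. Ratios of Bgn to Dcn and of Fmod to Lum were tested by exact permutation within sex, with adjustment over 8 tests. Coordinates of all 9 members were the same in GENCODE M21. Named genes were the 9 members, Col6a2, the called gene of smallest p in each direction from each pathway list, any gene of the collagen VI and other SLRP lists, and the 3 nearest genes to each member; Cenpp and Scp2, which overlap members, and the markers Tcf21, Sost and Gsn were named after their values were seen. Lists covered other SLRPs, sulfate chain enzymes, collagens, proteases, TGFβ genes, receptors and markers of 10 cell types. Members and lists were chosen with earlier results of these data known. Alternatives varied the pseudocount, filter, scaling, unit, replicate block, library weights and libraries included. The labels do not state pairing of mice. The limma p-values set a change against the spread between mice within groups, estimated over all 8 groups together. The permutation p-values rest on the libraries of each comparison alone.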

Additional observations from a re-analysis of the deposited data

Results flagged for a closer look

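In 5 of the 72 sets of 4 libraries examined (9 members in 8 groups), the gap from 1 library to the nearest of its group, divided by the group's range, was above Dixon's 95% critical value, which chance passes in about 1 in 20 sets. The number is thus near what chance gives, and the sets are not independent, since the 9 genes share libraries. Replicate 4 of the Col6a2-/- females of 25 weeks was the high library for Dcn (401 TPM, against 258 to 265 in the other 3), Fmod (77.7 TPM, against 19.8 to 28.4) and Prelp (30.2 TPM, against 8.37 to 11.9). Replicate 1 of the Col6a2-/- males of 5 weeks was the high library for Dcn (379 TPM, against 298 to 306) and Prelp (13.9 TPM, against 6.78 to 7.9).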

How the results depend on the processing

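Bgn and Aspn remained called for genotype at 5 and at 25 weeks under each alternative and in each of the 32 fits that left out 1 library, with changes of 0.90 to 1.11 and 0.83 to 0.99 for Bgn and 1.061 to 1.287 and 0.79 to 0.95 for Aspn under the 10 alternatives, and of 0.95 to 1.23 and 0.85 to 0.99 for Bgn and 1.15 to 1.39 and 0.83 to 0.94 for Aspn without single libraries. Without single libraries, the members called numbered 3 to 5 for genotype at 5 weeks, 2 to 3 at 25 weeks, 2 to 3 in females and 1 to 3 in males of 5 weeks, 2 to 4 in males of 25 weeks and 3 to 4 for age in Col6a2-/- mice. The 4 in males of 25 weeks came without replicate 2 of the 5-week Col6a2-/- females. Over all genes, these fits called 2207 to 4749 for genotype at 5 weeks, the most in the fit with 5 members. They called 270 to 983 genes for genotype at 25 weeks and 3464 to 5506 for age in Col6a2-/- mice. Library weights raised the members called in males of 25 weeks from 2 to 6, and added Omd at 5 weeks (adjusted p = 0.0402) and Podn at 25 weeks (adjusted p = 0.0172). They raised calls over all genes as well. The share called higher went from 2.91% to 18.4% in males of 25 weeks. Over both sexes it went from 23.2% to 29.3% at 5 weeks and from 4.47% to 14.5% at 25 weeks. Uncalled values that changed sign were, under median-of-ratios scaling, Dcn (-0.0529) and Ogn (-0.0888) with genotype at 5 weeks and Dcn (0.1024) and Podn (0.0296) with age in Col6a2-/- mice, and under quantile scaling Ogn at 5 weeks (-0.0168), Omd at 25 weeks (-0.0508), Omd with age in WT (0.0537; 0.0145 when rescaled without mitochondrial and Rn7s genes) and Dcn (0.0816) and Podn (0.0805) with age in Col6a2-/- mice. Leaving out 1 library spread Ogn at 5 weeks from -0.0626 to 0.2452, Omd with age in WT from -0.1374 to 0.0173, Dcn and Fmod with age in Col6a2-/- mice from -0.1913 to 0.0433 and from -0.3933 to 0.0364, and the age difference of Lum from -0.2858 to 0.0155, across zero. The causes were not tested. No call of a ratio was lost; without single libraries Bgn to Dcn differed by 0.9066 to 1.041 at 5 weeks, while the uncalled differences of Fmod to Lum ran from -0.5359 to -0.2273 with genotype at 25 weeks and from 0.2247 to 0.5558 with age in WT.

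Counts over all genes moved more: genotype at 5 weeks called 3253 genes (2979 higher), 1553 with a filter of 5 TPM, 1907 with only the 5-week libraries, and 3102 (1623 higher) by median-of-ratios scaling; at 25 weeks 603 (573 higher) became 343 without a filter, 344 at 5 TPM, 1177 with only the 25-week libraries, 1282 (750 higher) by median-of-ratios scaling and 1967 with library weights. Leaving out 1 library moved the count at 25 weeks from 270 (without Col6a2-/- male 1 of 25 weeks) to 983 (without Col6a2-/- female 2 of 5 weeks), and by over 1.5 times also without WT female 4, WT males 2 and 3, Col6a2-/- females 1 and 4 and Col6a2-/- male 3 of 25 weeks (319 to 388) and Col6a2-/- female 4 of 5 weeks (967). Within sex the alternatives moved the counts as well. In females of 5 weeks 1648 became 722 (5 TPM) to 2879 (weights), and in males 645 became 295 (5 TPM) to 1247 (rescaled). At 25 weeks, 1 became up to 33 in females (weights), and 388 became 133 (no filter) to 2437 (weights) in males. Age called 2536 genes in WT, 1963 of them lower (1441 at 5 TPM, 4166 with weights), and 4389 in Col6a2-/- mice, 3695 lower (2263 at 5 TPM). The balance shifted by median-of-ratios scaling, to 1711 higher and 1953 lower in WT and 2104 higher and 2318 lower in Col6a2-/- mice, and in WT after rescaling without mitochondrial and Rn7s genes, to 1139 higher and 1173 lower. For genotype at 5 weeks, quantile scaling called 1413 genes higher and 1672 lower.

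With the replicate number as a block, the members called stayed at 3 for genotype at 5 weeks, 3 at 25 weeks, 3 for age in WT and 3 in Col6a2-/- mice, and the block changed no call of a member. Same-numbered libraries of different groups correlated from -0.34 to 0.349 (median 0.0322) in their deviations from group means. The median was -0.0132 for pairs with different numbers. Of the 112 same-numbered pairs, 35 were above 0.1, and 10 libraries were closest to one of their own number. These values cannot show whether the numbers pair the mice. Depth limits Omd and Podn most, whose values ran from 0.652 to 3.64 TPM and from 0.881 to 3.3 TPM.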
